A study of Mus musculus with 6 samples.

Results

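The 10 genes described here encode the interleukin-1 (IL-1) system and the NLRP3 inflammasome: the ligands Il1a, Il1b and Il18, the antagonist Il1rn, the receptor chains Il1r1, Il1rap and Il1r2, and the inflammasome parts Nlrp3, Pycard and Casp1. They were chosen by symbol and not by a cutoff on measured values, though with earlier results of these data known. Each symbol matched 1 identifier of the 41388 in the count table. All 10 passed the low-count filter, which left 15939 genes for testing.

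IL-1 alpha and IL-1 beta both bind the receptor encoded by Il1r1, which signals only when the accessory chain encoded by Il1rap joins it. The antagonist encoded by Il1rn occupies the same receptor without signalling, and the decoy receptor encoded by Il1r2 binds ligand but has no signalling tail. IL-1 beta and IL-18 are made as inactive precursors, which caspase-1 (Casp1) cuts once the sensor NLRP3 has assembled with the adaptor ASC (Pycard). In liver, resident and infiltrating macrophages are known sources of IL-1 beta, and hepatocytes answer IL-1 with acute phase proteins. Because cutting and release happen to the protein, messenger RNA levels do not report inflammasome activity.

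Bulk liver RNA came from BALB/c mice in which carbon tetrachloride (CCl4), a liver toxin, had been given for 5 weeks to induce fibrosis; all 6 libraries share this. In the AL/NP group (3 libraries, titled "Al/NP high") mice also received nanoparticles carrying alendronate, a bisphosphonate, at 4 mg/kg, 2 times per week in the last 2 weeks. The control group (3 libraries) is labelled as untreated fibrotic liver; the labels repeat the particle protocol on these samples too, and whether controls were injected with anything is not given in the sources used here. Age and sex are likewise not given, and a particle without drug or a healthy liver was not analysed here. The labels number the replicates without saying that each is a separate animal, so p-values measure the spread between these samples.

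Libraries held 30554483 to 39838428 counts, and a count of 3 equalled 0.0753 to 0.0982 CPM (counts scaled to the library total) before further scaling. Levels are given below as CPM scaled by the trimmed mean of M-values (TMM). Control replicate 3 stood apart, with a TMM factor of 0.809 where the remaining 5 ranged from 0.937 to 1.13, and with 26.7% of its counts in mitochondrially encoded genes where these held 11.96% to 19.8%. The 6 hepatocyte markers summed to 56133 to 74223 CPM in controls and 45682 to 52580 CPM with AL/NP, so the labelled tissue carried its defining genes in every library. The sums were lower with AL/NP without overlap, and 0 of the 6 markers had a log2 fold change above 0 (median -0.437).

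Promoter sequence is shown for 3 of the 4 members whose groups did not overlap, because these carry the contrast described next. Il1b and Nlrp3 lay on the higher side and Il18 on the lower side. Pycard, higher by a small margin, is not shown. Each line is the 250 bases before an annotated transcription start, 5′ to 3′ on the gene's strand, from RefSeq on GRCm38.p6. Capitals mark matches on either strand to 4 motifs: the NF-kB consensus, TGANTCA (AP-1), TTNCNNAA (C/EBP) and GAGGAA (the PU.1 core). The Il1b window lies at chr2:129371140-129371389 on the minus strand, the windows of the 2 Nlrp3 starts at chr11:59541319-59541568 and chr11:59542436-59542685 on the plus strand, and the Il18 window at chr9:50554450-50554699 on the plus strand.
Il1b: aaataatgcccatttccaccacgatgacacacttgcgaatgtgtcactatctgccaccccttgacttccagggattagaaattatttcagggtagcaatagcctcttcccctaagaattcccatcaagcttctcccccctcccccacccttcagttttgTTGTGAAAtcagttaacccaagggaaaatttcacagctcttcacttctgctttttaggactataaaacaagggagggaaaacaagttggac
Nlrp3, upstream start: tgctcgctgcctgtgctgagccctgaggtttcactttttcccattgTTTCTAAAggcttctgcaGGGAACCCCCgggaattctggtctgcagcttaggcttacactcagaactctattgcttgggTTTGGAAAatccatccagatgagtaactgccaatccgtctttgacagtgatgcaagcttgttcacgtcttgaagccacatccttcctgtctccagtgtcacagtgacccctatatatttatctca
Nlrp3, downstream start: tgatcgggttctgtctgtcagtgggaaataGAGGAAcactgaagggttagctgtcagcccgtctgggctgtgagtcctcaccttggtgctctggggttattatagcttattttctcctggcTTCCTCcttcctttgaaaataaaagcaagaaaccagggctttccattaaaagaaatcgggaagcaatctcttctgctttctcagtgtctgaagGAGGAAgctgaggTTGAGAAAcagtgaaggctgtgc
Il18: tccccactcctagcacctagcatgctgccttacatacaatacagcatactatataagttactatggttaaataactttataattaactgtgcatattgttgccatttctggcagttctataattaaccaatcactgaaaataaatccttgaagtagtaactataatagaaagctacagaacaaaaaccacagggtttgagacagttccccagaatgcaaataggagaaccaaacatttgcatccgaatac

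The Il1b window held 1 match, to TTNCNNAA, starting 91 bases before the transcription start. The window of the upstream Nlrp3 start held 1 NF-kB match, which begins 186 bases before that start, and 2 matches to TTNCNNAA, at 204 and 125 bases. That of the downstream Nlrp3 start held 0 NF-kB matches, 1 to TTNCNNAA and 3 to GAGGAA. The Il18 window held no match to the 4 motifs. In the Pycard window, not shown, there was 1 match to TTNCNNAA and 1 to GAGGAA. Over the 14 windows of the 10 members, the NF-kB consensus was matched in 2 (the upstream start of Nlrp3 and one start of Il1r1), where 7.25% of all 32851 windows of this length hold it. TGANTCA was matched in 2 of 14 (Il1a and one start of Il1rn; 6.75% of all windows), TTNCNNAA in 9 of 14 (36.8%) and GAGGAA in 4 of 14 (23.3%). The windows are not all distinct: 2 of the Il1rn windows overlap, and the same TTNCNNAA site is matched in both. In the second start of Il1r1 and in Il1a, a match to TTNCNNAA shares bases with another motif. These matches describe letters only; binding was not measured.

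Il1b was the member with the widest difference. It lies on chromosome 2 from 129364570 to 129371139 (GRCm38, minus strand, protein coding). Its level was 2.18, 1.24 and 2.11 CPM in control replicates 1 to 3, and 4.87, 5.72 and 5.74 CPM in AL/NP replicates 1 to 3. Every AL/NP library lay above every control, and the 3 libraries within AL/NP lay close together. Group means were 1.85 ± 0.523 CPM (SD, n = 3) in controls and 5.44 ± 0.502 CPM with AL/NP. The log2 fold change was 1.56 (SE 0.271, 95% interval 0.945 to 2.18), a 2.95-fold difference. The adjusted p of edgeR's quasi-likelihood test was 0.0839, short of the threshold of 0.05, at rank 58 by p among all tested genes. DESeq2 gave 1.57 (SE 0.2900) with an adjusted p of 2.10e-05. These values rest on 45 to 76 counts per control library and 140 to 208 per AL/NP library. The antisense gene Il1bos shares 25 exonic bases with Il1b and had 33 counts over the 6 libraries, against 735 for Il1b.

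Read across the 10 members, edgeR called 0 at an adjusted p under 0.05, where it called 0.0816% of all tested genes (0.0627% higher and 0.0188% lower). DESeq2 called 1 member, Il1b, where it called 5.17% of genes (2.65% higher and 2.52% lower). At an unadjusted p under 0.05 there were 4 members, Il1b, Nlrp3 and Il1rn higher with AL/NP and Il18 lower, beside 19.6% of all tested genes (9.37% higher and 10.3% lower). Groups did not overlap in 4 members, Il1b, Nlrp3 and Pycard higher and Il18 lower, beside 29.5% of all tested genes (14.5% higher and 15% lower). The log2 fold change was above 0 in 7 of 10 members, beside 50% of all tested genes. Its median was 0.453 over the members and -0.000249 over all tested genes.

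**Figure D1:**
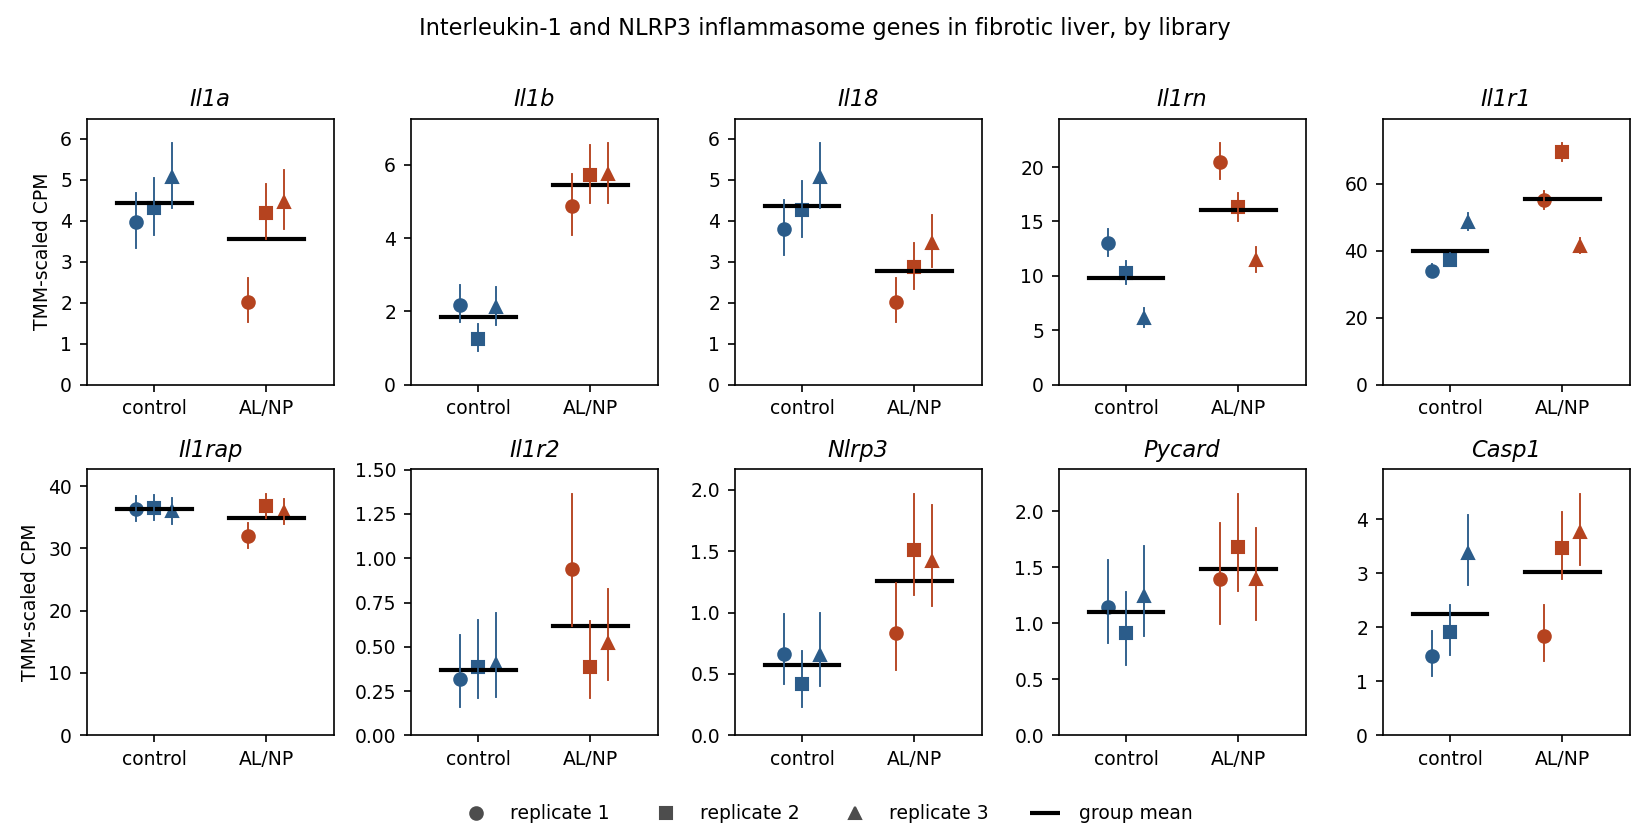
Level of each of the 10 genes in every library, in TMM-scaled CPM on a linear axis from 0, by group; symbols give the replicate, horizontal bars the group mean, and vertical lines the exact 95% Poisson interval of the count, which covers counting error only. Il1b sits between 4.87 and 5.74 CPM in AL/NP and between 1.24 and 2.18 CPM in controls, whereas Il1rap sits between 32.0 and 36.8 CPM in all 6 libraries.

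Both other ligands had a lower mean with AL/NP than in controls. Il1a, the neighbouring gene on chromosome 2 (129299610 to 129309972, minus strand), encodes the form of IL-1 that is active without caspase-1. It measured 3.96, 4.31 and 5.06 CPM in control replicates 1 to 3, and 2.02, 4.18 and 4.47 CPM with AL/NP. Only AL/NP replicate 1 lay below the range of the controls, and the groups overlapped. Its log2 fold change was -0.317 (SE 0.310, adjusted p = 0.579 by edgeR), and -0.0382 without AL/NP replicate 1. The opposite-strand gene Gm14023 shares 222 exonic bases with Il1a and had 91 counts against 821.

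Il18 (chromosome 9, 50554827 to 50581840, plus strand) encodes a cytokine that shares the caspase-1 step with IL-1 beta and acts on T and NK cells. Its level was 3.79, 4.25 and 5.06 CPM in control replicates 1 to 3 and 2.02, 2.86 and 3.45 CPM with AL/NP. Every AL/NP library lay below every control, opposite in direction to Il1b. This gave a log2 fold change of -0.6495 (SE 0.264, 95% interval -1.25 to -0.0508), with an unadjusted p of 0.0366 and an adjusted p of 0.228 by edgeR. Bco2 and Tex12 overlap Il18 on the opposite strand without sharing exonic bases.

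Within each library the ligands were also set against each other, as the plot of ratios shows. Per kilobase of annotated exon, the level of Il1b over that of Il1a was 0.57, 0.299 and 0.432 in control replicates 1 to 3 and 2.50, 1.42 and 1.33 in AL/NP replicates 1 to 3. Il1b over Il18 was 0.311, 0.158 and 0.226 in controls and 1.30, 1.08 and 0.8996 with AL/NP. In both ratios every AL/NP library exceeded every control, which the levels given above had fixed in advance. For Il18, this is because Il1b was higher and Il18 lower without overlap. For Il1a, even the lowest Il1b (4.87 CPM) over the highest Il1a (4.47 CPM) with AL/NP exceeds the highest control Il1b (2.18 CPM) over the lowest control Il1a (3.96 CPM). These ratios are free of library scaling, since both genes come from the same library, but they were formed after the levels were known and were not tested.

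**Figure D2:**
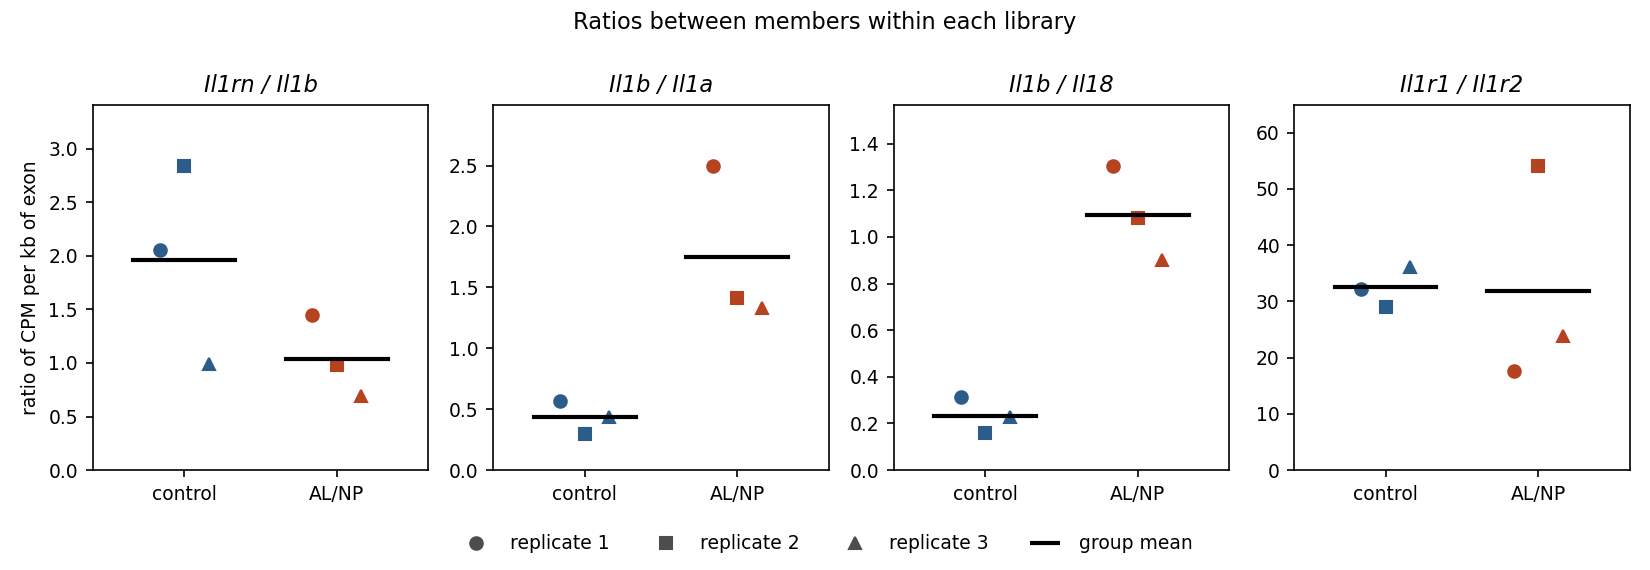
Ratios between pairs of members within each library, from CPM per kilobase of exon, on linear axes from 0; symbols give the replicate and bars the group mean. Il1b over Il1a and Il1b over Il18 do not overlap between groups, which the levels of the single genes had fixed in advance. Il1rn over Il1b and Il1r1 over Il1r2 do overlap.

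The antagonist gene Il1rn (chromosome 2, 24336853 to 24351494, plus strand) had a higher mean with AL/NP but a wide spread in both groups. It measured 13.0, 10.2 and 6.09 CPM in control replicates 1 to 3, and 20.5, 16.3 and 11.5 CPM with AL/NP. AL/NP replicate 3 fell below control replicate 1, so the groups overlapped. On the log2 scale the difference was 0.715 (SE 0.298, 95% interval 0.0373 to 1.39; unadjusted p = 0.0408, adjusted p = 0.238, edgeR). Without control replicate 3 it was 0.464. Secreted and intracellular forms of the antagonist start at different first exons, and gene-level counts do not separate them.

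Antagonist over Il1b, per kilobase, was 2.06, 2.84 and 0.993 in control replicates 1 to 3 and 1.45, 0.981 and 0.689 with AL/NP. Control replicate 3 lay among the AL/NP values. Set against the sum of Il1a and Il1b, Il1rn was at 0.747, 0.653 and 0.2995 in controls and 1.04, 0.575 and 0.393 with AL/NP, and the groups overlapped. The mean of Il1rn over Il1b was 1.96 ± 0.927 (SD, n = 3) in controls and 1.04 ± 0.385 with AL/NP, so neither ratio separated the groups.

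Among the receptors, Il1r1 (chromosome 1, 40225080 to 40317257, plus strand), the signalling chain, was the member with the highest level per kilobase in both groups. It measured 33.9, 37.4 and 48.7 CPM in control replicates 1 to 3 and 55.2, 69.5 and 41.5 CPM with AL/NP. AL/NP replicate 3 lay between control replicates 2 and 3. On the log2 scale the difference was 0.469 (SE 0.219, 95% interval -0.0286 to 0.967, adjusted p = 0.274 by edgeR), and 0.272 without AL/NP replicate 2.

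Il1rap (chromosome 16, 26581704 to 26730117, plus strand), the accessory chain that IL-33 and IL-36 receptors also use, was the steadiest member. It measured 36.3, 36.5 and 36.0 CPM in control replicates 1 to 3 and 32.0, 36.8 and 35.9 CPM with AL/NP. The log2 fold change was -0.0566 (SE 0.1299, adjusted p = 0.833, edgeR), with a 95% interval of -0.352 to 0.239; scaled by library totals alone it was 0.0825, a setting in which the median gene shifted to 0.133. The antisense gene Gm20319 shares 552 exonic bases with Il1rap and had 3260 counts against 7241. How featureCounts was set for strand is not given in the sources used here, so shared reads cannot be told apart.

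Il1r2 (chromosome 1, 40074079 to 40125231, plus strand), the decoy, had 11 to 14 counts per control library and 27, 14 and 18 in the AL/NP libraries in order of replicate. That is 0.316, 0.387 and 0.404 CPM in controls and 0.938, 0.385 and 0.522 CPM with AL/NP. AL/NP replicate 1 was high, and AL/NP replicate 2 lay inside the control range. The fitted log2 fold change was 0.717 (SE 0.433, adjusted p = 0.369, edgeR) and 0.296 without AL/NP replicate 1. At this depth the 95% interval ran from -0.267 to 1.70. The ratio of Il1r1 to Il1r2 per kilobase was 29.0 to 36.2 among controls, whereas AL/NP replicates 1 to 3 gave 17.6, 54.1 and 23.8.

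Nlrp3 (chromosome 11, 59541568 to 59566956, plus strand), the sensor, had the lowest mean level per kilobase of the 10 genes in both groups. With AL/NP that place is not distinguished: Nlrp3 averaged 0.310 and Il1r2 0.322 CPM per kb, and their libraries overlapped. Nlrp3 measured 0.661, 0.414 and 0.652 CPM in control replicates 1 to 3 and 0.834, 1.51 and 1.42 CPM with AL/NP. All AL/NP libraries lay above all controls, and AL/NP replicate 1 was close to them. This gave a log2 fold change of 1.13 (SE 0.370, 95% interval 0.289 to 1.97), a 2.19-fold difference, with an unadjusted p of 0.0142 and an adjusted p of 0.177 by edgeR. It rests on 15 to 23 counts per control library and 24, 55 and 49 with AL/NP; the exact Poisson interval of AL/NP replicate 1, 15.4 to 35.7 counts, covers each control count but 15.

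Pycard (chromosome 7, 127989708 to 127993867, minus strand), the adaptor, also separated, by a small margin. It measured 1.15, 0.911 and 1.24 CPM in control replicates 1 to 3 and 1.39, 1.68 and 1.39 CPM with AL/NP. The log2 fold change was 0.436 (SE 0.286, adjusted p = 0.407, edgeR), with a 95% interval of -0.214 to 1.09. Nlrp3 over Pycard per kilobase was 0.426 to 0.539 among controls, and AL/NP replicates 1 to 3 gave 0.562, 0.845 and 0.956. The groups were barely apart: AL/NP replicate 1 had 24 Nlrp3 and 40 Pycard counts, and control replicate 1 had 23 and 40. This ratio was not tested.

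Casp1 (chromosome 9, 5298517 to 5307265, plus strand), the protease of the complex, differed as much within the groups as between them. It measured 1.46, 1.91 and 3.39 CPM in control replicates 1 to 3 and 1.84, 3.47 and 3.77 CPM with AL/NP. AL/NP replicate 1 lay among the lower controls and control replicate 3 lay close to the higher AL/NP libraries. The log2 fold change was 0.433 (SE 0.388, adjusted p = 0.541, edgeR). It was 0.844 without control replicate 3 and 0.201 without control replicate 1.

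**Figure D3:**
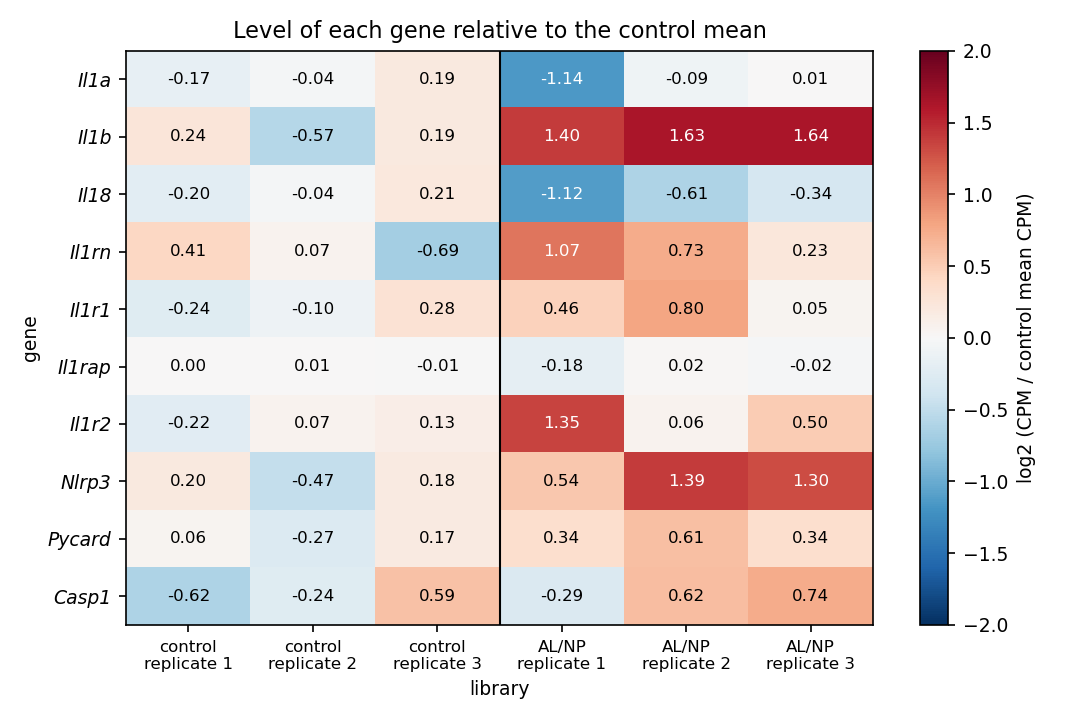
Log2 of each gene's CPM over the mean CPM of the 3 controls, for every gene (rows) and library (columns), with the value printed in each cell; red is above and blue below the control mean. Il1b is at 1.40 to 1.64 in the AL/NP libraries, while Il1a is at -1.14 in AL/NP replicate 1 and near the control mean in the other AL/NP libraries.

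The members did not vary as a block within the AL/NP group. AL/NP replicate 1 was the lowest of the 3 for 7 members (Il1a, Il1b, Il1rap, Nlrp3, Casp1, Pycard and Il18) and the highest for the 2 that restrain IL-1, Il1rn and Il1r2. Relative to the control mean on the log2 scale it stood at -1.14 for Il1a and -1.12 for Il18, and at 1.07 for Il1rn and 1.35 for Il1r2. In the same library Il1b stood at 1.40. Among controls, replicate 3 was the highest for 6 members and the lowest for Il1rn and Il1rap.

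Ordered by level per kilobase in controls, the first was Il1r1 at 6.29 ± 1.22 CPM per kb (SD, n = 3), then Il18 at 4.24 ± 0.625, Il1rap at 3.19 ± 0.0239, Il1a at 2.25 ± 0.285, Il1rn at 1.77 ± 0.632, Casp1 at 1.50 ± 0.672 and Il1b at 0.968 ± 0.274. Pycard at 0.2897 ± 0.0449, Il1r2 at 0.193 ± 0.0244 and Nlrp3 at 0.142 ± 0.0345 followed. Neighbours from Il1a down to Il1b overlapped between libraries and are not distinguished; all other neighbours were apart. With AL/NP, Il1r1 stayed first at 8.71 ± 2.20 CPM per kb, and Il1b at 2.86 ± 0.263 came next after Il1rap and Il1rn, overlapping with both Il1rn above it and Il18 below it. Annotated exons include long alternative ends for Il1rap and Il1rn (11360 and 5535 bases), so levels per kilobase depend on the annotation.

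Summed macrophage, monocyte and neutrophil markers stood higher in the AL/NP libraries, while hepatocyte markers stood lower. Of 10 macrophage and Kupffer cell markers, all tested, 9 had a log2 fold change above 0, and their summed level was 194 to 276 CPM in controls and 352 to 476 CPM with AL/NP. Much of that gap lay in Mpeg1, which encodes a pore-forming protein of phagocytes, with 53.8, 57.9 and 72.1 CPM in control replicates 1 to 3 and 154, 131 and 138 CPM with AL/NP. Summed without Mpeg1, a comparison added after seeing the data, the list gave 136 to 204 CPM in controls and 198 to 338 CPM with AL/NP, and the groups overlapped. Single markers of this list differed: Clec4f, Timd4 and Vsig4, which mark Kupffer cells, had log2 fold changes of -0.203, 0.157 and 0.372. Marco and Cd5l, on the same list, were higher, at 0.960 and 1.264 (adjusted p = 0.216 and 0.0640 by edgeR). Infiltrating monocyte markers (7 of 7 above 0) summed to 20.4 to 33.0 CPM in controls and 36.2 to 64.4 CPM with AL/NP. Neutrophil markers (7 of 7 tested above 0, with 6 of the 13 too low to test) summed to 19.3 to 35.2 CPM and 35.7 to 82.8 CPM. No marker of the macrophage, monocyte and neutrophil lists was at 0 in all libraries. In bulk tissue, more cells of a type and more RNA per cell cannot be told apart.

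Set against those sums, Il1b was 1.07, 0.64 and 0.766 CPM per 100 CPM of macrophage markers in control replicates 1 to 3 and 1.38, 1.59 and 1.21 with AL/NP. The AL/NP libraries stayed above the controls, with a ratio of means of 1.69, and of 1.95 without Mpeg1, where the groups were also apart. Per 100 CPM of monocyte markers it was 6.09 to 7.31 in controls and 8.91 to 13.4 with AL/NP, again apart. Per 100 CPM of neutrophil markers it was 10.6, 6.43 and 5.996 in controls and 13.6, 10.7 and 6.94 with AL/NP, and the groups overlapped. Nlrp3 overlapped between the groups on each of the 3 scales, with ratios of means of 1.23, 1.19 and 0.955. Il18 was lower with AL/NP on each, with ratios of 0.355, 0.336 and 0.277. This was fixed in advance, since Il18 itself was lower and the 3 sums higher without overlap. Il1a (0.445, 0.412 and 0.337) and Il1rap (0.540, 0.523 and 0.431) were also lower on each scale. Their own levels overlapped between the groups, so these ratios mainly mirror the higher sums. On the macrophage scale the ranges of level and sum had fixed this in advance for both genes. The part of these cells, hepatocytes included, in the differences of Il1b, Nlrp3 and Il18 was not tested.

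**Figure D4:**
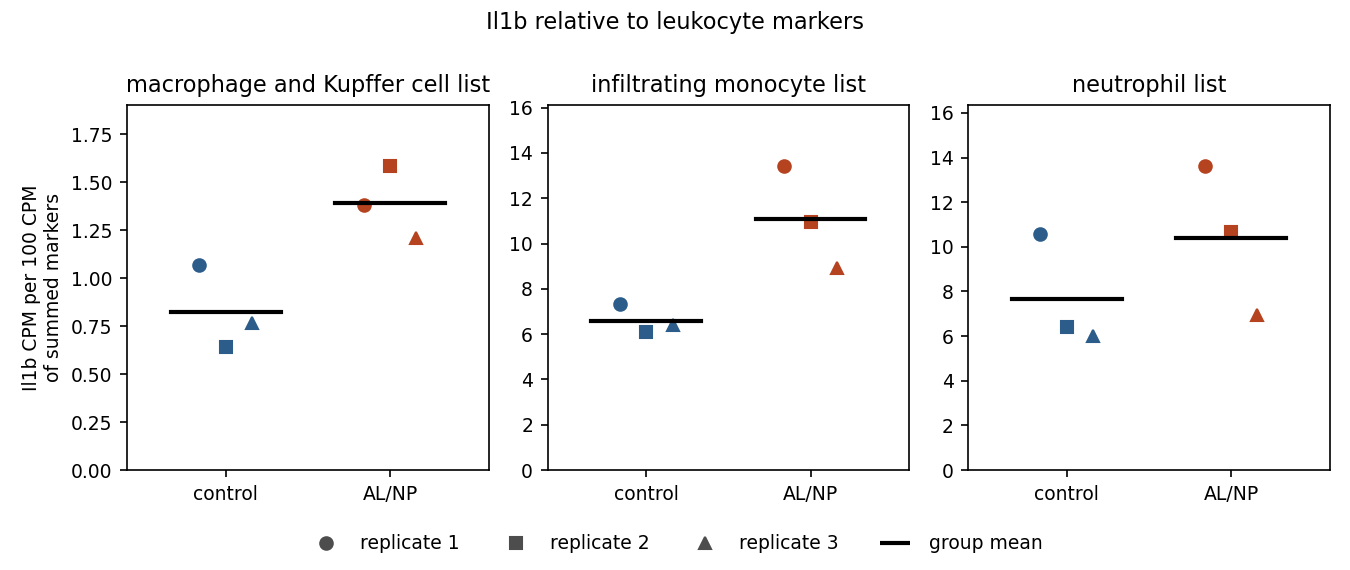
Il1b CPM per 100 CPM of summed markers in each library, for the macrophage and Kupffer cell, infiltrating monocyte and neutrophil lists, on linear axes from 0; symbols give the replicate and bars the group mean. The groups are apart for the first 2 lists and overlap for the neutrophil list, where AL/NP replicate 3 is at 6.94 and control replicate 1 at 10.6.

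Further genes of the pathway were taken from 6 lists, whose counts at an unadjusted p under 0.05 are to be read beside 9.37% higher and 10.3% lower over all tested genes. DESeq2 called 1 gene, higher, in each of the lists of other IL-1 family members, other inflammasome genes and other proteases, 2 genes, both lower, below the receptor, and 0 among genes that act on NLRP3, where it called 5.17% of all genes. Among other IL-1 family ligands and receptors, 6 of the 14 matched genes were tested, 1 had an unadjusted p under 0.05 and edgeR called 0. That gene was Il1f9, the symbol in the table for Il36g, which encodes the cytokine IL-36 gamma. It measured 0.316, 0.249 and 0.373 CPM in control replicates 1 to 3 and 0.904, 0.936 and 1.02 CPM with AL/NP, without overlap. Its log2 fold change was 1.60 (SE 0.342, adjusted p = 0.108 by edgeR and 0.02695 by DESeq2). Il18bp, which neutralizes IL-18, was at 0.378 (SE 0.197), and Sigirr, an inhibitory receptor, at 0.261 (SE 0.140). Il1rl1, the IL-33 receptor, had 12 counts in AL/NP libraries together and 17 in controls together, too low to test.

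Of 20 genes that carry the signal below the receptor, all tested, edgeR called 0; 4 were higher and 2 lower at an unadjusted p under 0.05, and the median log2 fold change was 0.0288. The 2 lower of 20 are close to the 10.3% of all tested genes in that direction. They had the smallest p-values of the list. Peli1, a ubiquitin ligase of the IRAK complex, measured 18.0, 17.7 and 18.8 CPM in control replicates 1 to 3 and 9.98, 12.0 and 12.6 CPM with AL/NP (log2 fold change -0.652, SE 0.148; adjusted p = 0.118 by edgeR, 0.0175 by DESeq2). Chuk, the kinase IKK alpha, measured 80.4, 83.4 and 93.7 CPM and 47.1, 57.4 and 60.6 CPM (-0.641, SE 0.155; adjusted p = 0.124 by edgeR, 0.0135 by DESeq2). Both were apart between the groups, on the lower side. Myd88, the receptor's adaptor, was at 0.395 (SE 0.143, adjusted p = 0.1999 by edgeR), with 15.4 to 15.8 CPM in controls and 18.7 to 23.5 CPM with AL/NP.

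Among other inflammasome sensors, caspases and pyroptosis genes, 16 of 18 were tested, edgeR called 0, and 1 was higher at an unadjusted p under 0.05. This was Mefv, which encodes the sensor pyrin, with 0.144, 0.249 and 0.435 CPM in control replicates 1 to 3 and 0.626, 1.24 and 1.02 CPM with AL/NP (log2 fold change 1.81, SE 0.476; adjusted p = 0.1396 by edgeR, 0.0345 by DESeq2). Nlrp6, a sensor of gut and liver epithelium, was at -0.841 (SE 0.368), with 398 CPM in control replicate 3 against 144 and 153 in the other controls and 121 to 135 with AL/NP. Naip1 was at 0.987 (SE 0.473). Gsdmd, the pore former of pyroptosis, was at -0.0265 (SE 0.166).

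Genes known to activate or restrain NLRP3 gave 2 of 13 tested at an unadjusted p under 0.05, both higher, and 0 called by edgeR. These were Ctsb, the lysosomal protease cathepsin B, at 0.431 (SE 0.160, adjusted p = 0.204), and Nek7, the kinase that binds NLRP3, at 0.416 (SE 0.174, adjusted p = 0.238). Groups were apart for both, and for Lrrc8a, a volume-regulated channel subunit, at 0.328 (SE 0.148). Of 9 genes for enzymes that cut or clear IL-1 without the inflammasome, 5 were tested, edgeR called 0 and 1 was higher at an unadjusted p under 0.05. Prtn3, a protease of neutrophil granules, measured 0.919, 0.663 and 0.466 CPM in control replicates 1 to 3 and 0.556, 3.25 and 4.38 CPM with AL/NP (log2 fold change 2.00, SE 0.646; adjusted p = 0.174 by edgeR, 0.0258 by DESeq2). AL/NP replicate 1, low in Prtn3, lay among the controls. Mme and Mmp9 were at -0.626 (SE 0.278) and 0.812 (SE 0.522).

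Liver genes known to respond to IL-1 were the list with the widest shift. Of 22 listed, 20 were tested and edgeR called 4, all higher: Orm2, Orm3, Saa1 and Saa3, which encode acute phase proteins, beside 0.0816% of all tested genes. DESeq2 called 14 of the list, all higher, beside 5.17% of genes. At an unadjusted p under 0.05 there were 17, all higher, beside 9.37% of all tested genes in that direction, and the median log2 fold change was 1.10. Saa1 measured 63.8, 55.4 and 34.8 CPM in control replicates 1 to 3 and 353, 1096 and 1279 CPM with AL/NP. Its log2 fold change was 4.15 (SE 0.499, adjusted p = 0.0493 by edgeR), and AL/NP replicate 1 was the lowest of its group. The other 3 called genes had the same adjusted p, just under the threshold. Saa1, Orm2 and Orm3 have close relatives, so the split of their reads is uncertain. The list was written with earlier results of these data known, and many of its genes also respond to IL-6, whose own gene, Il6, had 5 counts in AL/NP libraries together and 1 in controls together. What set the levels of these genes was not tested.

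**Figure D5:**
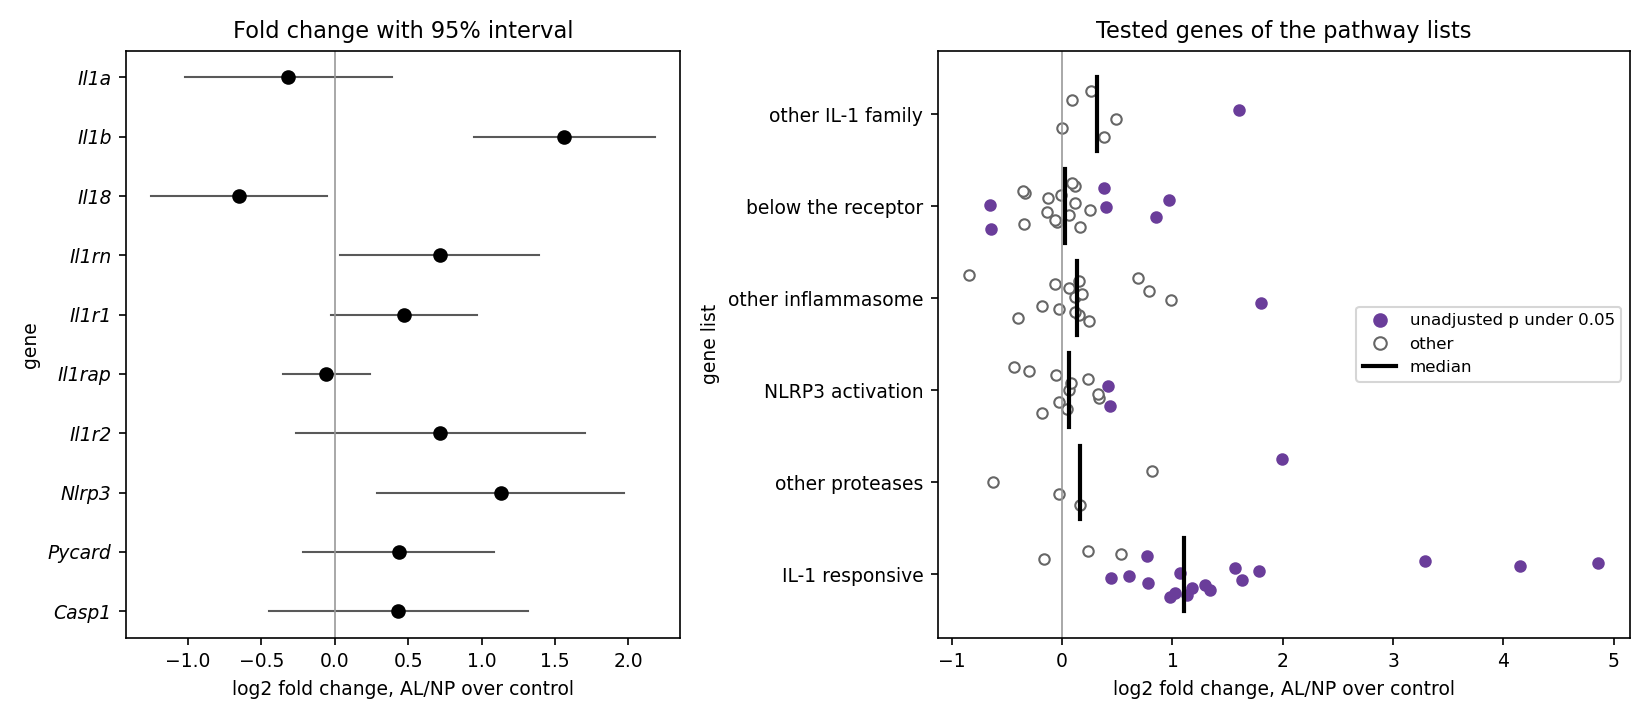
Left, log2 fold change of AL/NP over control for the 10 genes with 95% intervals from the edgeR fit; right, the same quantity for tested genes of the 6 pathway lists, with genes at an unadjusted p under 0.05 filled and the list median as a vertical bar. The intervals of Il1b, Il1rn, Nlrp3 and Il18 exclude 0, and the median of the IL-1 responsive list is 1.10, against 0.0288 for genes below the receptor.

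By Pearson's r of log2 CPM over the 6 libraries, given as a description over points that share groups and depth, the tested genes nearest to Il1b were H2-K1 (r = 0.992), Hpx (0.9902), Serpina3n (0.987), Hp (0.984) and Dok2 (0.984). Hpx and Hp encode plasma proteins that bind haem and haemoglobin, and Serpina3n a protease inhibitor. Hpx averaged 3595 CPM in controls and 7692 CPM with AL/NP, far above Il1b. Nearest to Il1r1, beside an identifier without a symbol (0.997), were Rrp9 (0.968), Irf7 (0.964), Sod2 (0.959) and Jak3 (0.958).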

How the data were processed

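RNA from 6 mouse liver samples was selected for polyadenylated transcripts, made into strand-marked libraries and sequenced in pairs, per the labels' protocols. The authors deposited raw counts per Ensembl gene in 1 table, with 1 column per library; the submitters' processing notes name GRCm38, STAR 2.6.1a, featureCounts and DESeq2 1.26.0. Annotation release, strand setting, handling of reads with several matches and filters are not given in the sources used here. Symbols, coordinates and exon lengths came from GENCODE M21 (GRCm38), which matched 40254 of 41388 identifiers.

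Groups were compared with edgeR 4.0.16 in R 4.3.3 (TMM scaling, filterByExpr with a minimum count of 10, robust quasi-likelihood fit), with Benjamini-Hochberg adjustment over 15939 genes at 0.05. SE is the absolute log2 fold change over the square root of F. The fit was tested on simulated data. Alternatives comprised size factors of DESeq2, library totals, filters of 1 count or of 50 counts in 3 libraries, a replicate block, omission of each library in turn, no robust estimation, mitochondrially encoded genes left out, limma-voom (limma 3.58.1) and DESeq2 1.42.0. No library pair looked like a duplicate by a chi-square statistic over genes.

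All 10 members are reported, with the 3 smallest p-values and any called gene of each of 6 pathway lists, and the 5 genes nearest to Il1b and to Il1r1 by r (log2 of CPM plus 0.1, mean CPM at least 1). Other genes were named after their values were seen: Gsdmd, Il1rl1, Il6, the single cell type markers and the genes overlapping members. Members and lists were chosen with earlier results of these data known. Gbp5 and Il37 were not matched. Intervals of counts cover counting error only.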

Additional observations from a re-analysis of the deposited data

How the results depend on the processing

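Over 15 alternatives Il1b kept a positive log2 fold change, from 1.33 to 1.71, with an adjusted p from 2.10e-05 to 0.254. It passed the threshold with DESeq2 (adjusted p = 2.10e-05) and with no filter beyond 1 count (log2 fold change 1.56, adjusted p = 4.40e-04), so the count of members called was 1 in both and 0 in the other 13; with 1 library left out at a time it was 0 to 0. Il1rap, between -0.0968 and 0.00193 with 1 library left out, reversed with library totals as the only scaling (0.0825) and without AL/NP replicate 1 (0.00193). The other 8 members kept their sign and stayed short of the threshold in every alternative that tested them; Nlrp3, Pycard and Il1r2 were not tested with at least 50 counts in 3 libraries, where the count of members with groups apart was 2. That count was 4 to 6 with 1 library left out. Members at an unadjusted p under 0.05 numbered 1 to 5 with 1 library left out; leaving out AL/NP replicate 2 or control replicate 2 gave 1, and leaving out AL/NP replicate 1 gave 2.

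The count of all genes called, 13, was 846 with DESeq2 and 747 with no filter beyond 1 count. It was 0 with library totals, with at least 50 counts in 3 libraries and without robust estimation, and 0 to 4 with 1 library left out (fewer samples). The cause of these shifts was not tested beyond that. With the replicate block 23 genes and 0 members were called. The SE of Il1rn fell from 0.298 to 0.172 (adjusted p = 0.0898 by edgeR) and that of Casp1 from 0.388 to 0.281. It also fell for Il1a and Il18, and it rose for the other members. Deviations of same-numbered libraries correlated at -0.0548, 0.0427 and 0.0752, within the range of differently numbered ones (-0.147 to 0.0974). These values do not settle whether the replicate numbers pair the samples, and the numbers were not used in the reported values. Members with under 60 counts in a library, Nlrp3, Pycard and Il1r2 above all, are limited by depth.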
